A study of Saccharomyces cerevisiae with 36 samples.

Results

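The genes described here are 36 budding yeast genes that encode proteins of the small (40S) ribosomal subunit and carry an intron. They are the genes whose symbol in the array annotation is RPS followed by a number, except RPS8B, RPS9A, RPS14A, RPS14B, RPS16A and RPS22B. That makes 36 of the 42 RPS genes and of the 230 genes with a symbol on the array. The rule uses symbols and no expression values, but it was set with earlier results of these data known. The 36 genes belong to 20 protein families. In 16 families both copies of a duplicated gene, A and B, are among the 36, and RPS8A, RPS9B, RPS13 and RPS16B stand alone. All 36 symbols were found in the RefSeq gene table. By the place of the protein in the subunit, 11 genes of 6 families belong to the head (among them RPS10, RPS16, RPS18, RPS19 and RPS25), 4 genes lie between head and body (RPS0 and its partner RPS21), and 21 genes of 12 families belong to the body and platform.

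In yeast few genes have introns, but ribosomal protein genes often do, and their transcripts make up much of the work of the spliceosome in growing cells. The spliceosome removes an intron in 2 chemical steps: the first cuts the 5′ splice site and leaves the intron as a branched lariat, and the second joins the exons and frees the lariat, which a debranching enzyme then opens for decay. Many ribosomal protein genes survive as pairs from an ancient genome duplication. The proteins of a pair are nearly or fully identical, while their introns have diverged in sequence.

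Splicing was compared in 18 mutants, each on 2 two-colour arrays with total RNA of the mutant in one channel and of a wild type in the other, and with the channels exchanged between the arrays. Of the mutants, 17 are deletion strains: brr1, cus2, dbr1, ecm2, gcr3, hsp104, msl1, mud1, mud13, mud2, nam8, prp17, prp18, snu17, snu40, snu66 and upf3. All of them but dbr1 were grown at 26 °C beside BY4741, the wild-type parent of the yeast deletion collection. The remaining mutant, prp4-1a, is a temperature-sensitive allele, and both it and its own wild type, SS330, were moved from 26 to 37 °C for 2 h. For dbr1 the labels describe pooled RNA from haploid and diploid cells, both dividing and sporulating, beside a wild type with no strain name. Of 7 meiotic genes whose exon probes could be tested in dbr1, 0 rose and 2 fell, with changes from −0.67 to 0.20. Array 1 of each mutant has the mutant in channel 2 and array 2 has it in channel 1. The labels name no separate cultures for the arrays of a mutant, so p-values measure the spread of the arrays, possibly a technical one, and the number of arrays limits the precision.

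Each gene had a junction probe, an intron probe and an exon probe, as read from the order of its probes on the array. Every value is a log2 ratio of mutant over wild type. Subtracting a gene's exon probe from its intron probe gave the intron index, and subtracting it from the junction probe gave the junction index. An index of 1 is a doubling relative to the exon probe, so an index also goes up where the exon probe goes down. The probe roles rest on this order and on how the probes behaved in these arrays, so the rise of introns is not independent evidence for them. Coding sequences of a pair are much alike, so exon and junction probes of one copy may have read the other as well, which was not tested. Intron, junction and exon values were fitted with limma over all 36 arrays. Errors are standard errors from that fit with n = 2 arrays, and rose, fell and called refer to a Benjamini-Hochberg adjusted p under 0.05 within a mutant. The fit shares 1 spread between mutants. The intron indices of prp4-1a spread 3.85 times as far between arrays as those of the median mutant, those of mud13 2.05 times and those of dbr1 1.88 times, so errors for these are too small. Array weights, an alternative fit in which arrays of a mutant with a wide spread count less, are quoted where they changed a count. Shares of all features come from the fit without such weights. Counts under array weights, under another alternative setting or with an array left out stand without a share and cannot be set against all features. In hsp104 the spread was 0.50 times the median, in mud1 0.57 and in snu40 0.60, and errors there are too large.

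Between 360 and 428 of the 432 spots of the 36 genes gave a ratio on an array. The direction of the ratio is likely rather than settled. In gcr3, which lacks STO1, the STO1 exon probe stood at −5.81 and −5.37, and in mud1 the MUD1 exon probe stood at −2.49 and −2.63. The junction probes were low as well, at −5.9 and −5.0 for STO1 in gcr3 and −3.88 and −3.94 for MUD1 in mud1. The MUD1 intron probe stood at −1.79 and −1.82 in mud1. By contrast, the intron probe of STO1 was above 0 in gcr3, at 0.96 and 1.15. With the mutant in channel 2, the prp4-1a array correlated over all probes at −0.40 with cus2, −0.43 with hsp104 and −0.36 with nam8, and hsp104 correlated at −0.36 with snu17. Labels do not settle the sign in such a case. If channel 1 over channel 2 were right, prp4-1a would show 36 lowered introns and snu17 34, and so on for each direction in the text.

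The introns were raised in most splicing mutants. In 10 mutants at least 20 of the 36 introns rose, in mud2 13 and in prp17 6 did, and in the other 6 mutants 0 did. The median intron index of the 36 genes was highest in prp4-1a (4.01), followed by dbr1 (2.21), snu17 (1.42), brr1 (1.39), snu66 (1.26), msl1 (1.25), prp18 (1.07), gcr3 (1.05) and mud13 (0.98). It was 0.59 in upf3, 0.41 in mud2 and 0.32 in prp17, and between −0.12 and 0.05 elsewhere. Neighbours in this order from snu17 to msl1 were not tested against each other. Across genes, 8 introns rose in 11 mutants (among them RPS0A, RPS0B, RPS10B, RPS19A, RPS23B, RPS26B and RPS27A) and 9 in 10 mutants. At the other end RPS13, whose protein lies in the body, rose in 5 of 18 mutants, RPS25A in 6, and RPS6A in 3 of the 9 in which both arrays gave a value. The other introns not tested in every mutant were RPS10A, RPS4A and RPS7A (17 mutants each) and RPS6B (16). These tallies count the index, not the intron probe alone. In prp17 the indices of RPS0A, RPS0B and RPS27A rose, with intron probes at 0.79, −0.02 and −0.06. The same tallies are not given for all introns, so they mark no trait particular to these genes.

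**Figure D1:**
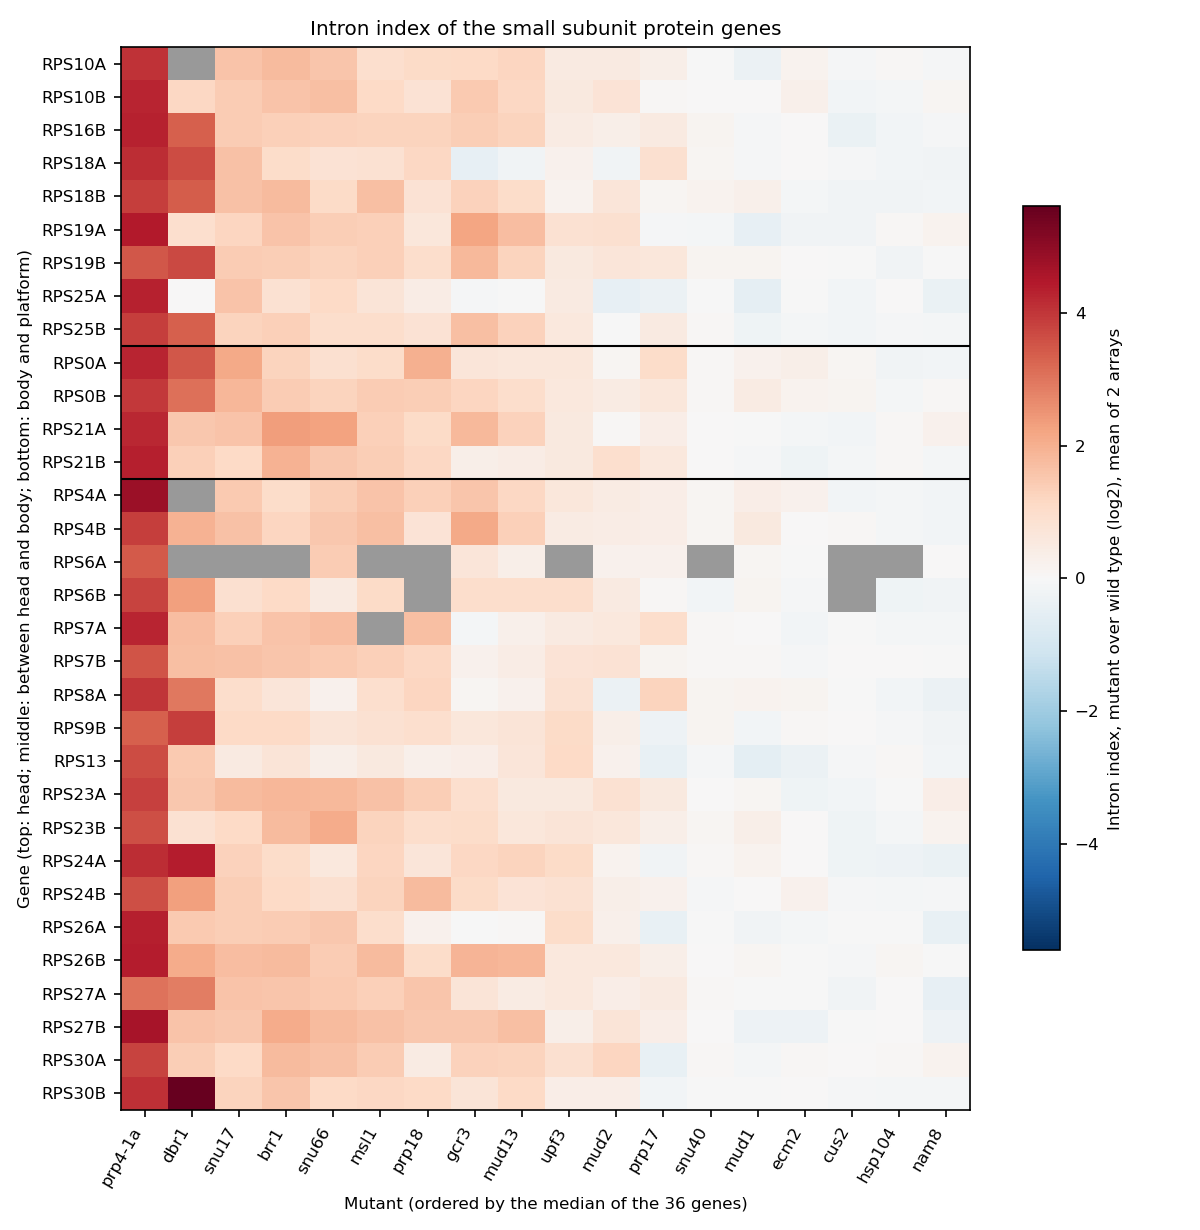
Intron index (log2, mutant over wild type, mean of 2 arrays) of 32 of the 36 genes in rows, grouped by place in the subunit, in 18 mutants in columns. Grey cells lack a value on 1 or both arrays. The prp4-1a column is red throughout (3.04 to 4.77), dbr1 runs from 0.04 to 5.56, and the columns from snu40 to nam8 are pale.

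**Figure D2:**
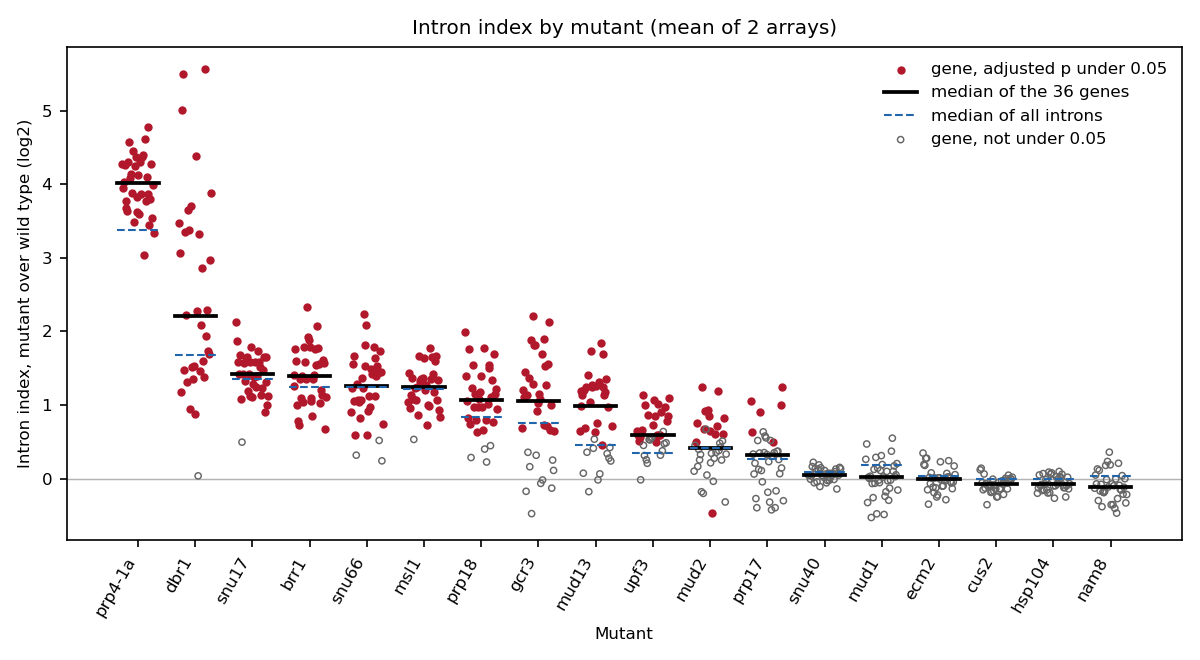
Intron index (log2, mean of 2 arrays) of each gene by mutant, with called genes filled, the median of the 36 genes as a solid line and that of all introns as a dashed line. The line of the 36 genes lies above that of all introns in prp4-1a (4.01 against 3.37) and mud13 (0.98 against 0.46) and below it in mud1 (0.02 against 0.18).

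After 2 h at 37 °C in prp4-1a, which affects a protein of the U4/U6 snRNP, all 36 introns rose, where 97.2% of the array's 216 introns did. Indices of the 36 genes ran from 3.10 to 5.81 on array 1 and from 2.54 to 4.15 on array 2, so no gene came near 0. RPS4A, a body protein gene, led with 5.81 and 3.73 on the arrays (4.77 ± 0.30, a 27.3-fold rise). RPS27B, the gene of a zinc-binding protein of the platform, followed with 5.07 and 4.15 (4.61 ± 0.23). Array 1 was the higher for both. The lowest were RPS27A, at 3.10 and 2.97 (3.04 ± 0.17), and RPS9B, the gene of a protein that bears on decoding accuracy, at 3.86 and 2.82 (3.34 ± 0.20). The high index had parts from both probes: the intron probes themselves rose in 36 of 36 genes with a median of 1.81, and the exon probes fell in all 36 with a median of −2.29. The order of the indices thus also followed the exon probes. The RPS27A intron probe rose by 2.23, above the median, while its exon probe stood at only −0.75 and −0.87. For RPS4A the intron probe rose by 1.95 and the exon probe stood at −3.25 and −2.39. The RPS9B intron probe, at 1.03, was below the median. Single probes were fitted together, apart from the indices, and 93.7% of all intron probes rose. RPL introns had a median index of 4.10 and other genes of 2.48.

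Junctions of 19 genes fell in prp4-1a against 54.7% of all junctions, and those of 6 rose against 16.5%. RPS27B was lowest, at −2.09 and −1.10 (−1.59 ± 0.15), then RPS27A at −1.44 and −1.14 (−1.29 ± 0.10). Both copies of the RPS27 pair were thus among the junctions that fell. The junction index of RPS26A, whose protein sits where mRNA leaves the subunit, went the other way by far, at 4.37 and 2.91 (3.64 ± 0.20), and it also rose in snu17 (0.96 ± 0.20) and snu66 (0.75 ± 0.20). RPS26A was the 1 gene whose junction rose in these deletions, where 1.44% and 0.952% of all junctions did. In snu66 it was not called with either array left out, and in snu17 0 junctions rose without array 2 and 3 without array 1. This is opposite to the 19 junctions that fell in prp4-1a, and the role of this probe is doubtful. Without subtraction of the exon probe, 35 of 36 junction probes fell in prp4-1a and 1 rose, against 82.9% and 4.17% of all junction probes. Under array weights, the junction indices called in prp4-1a came to 9 lowered and 1 raised.

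In brr1, snu17, snu66 and msl1 nearly every intron rose by a moderate amount. The deletions touch snRNP assembly (brr1), the U2 snRNP (msl1, and snu17, a protein that joins its SF3b part) and the tri-snRNP (snu66). In brr1 35 of 35 tested introns of the set rose, against 94.3% of all introns. In snu17 34 of 35 rose against 94.2%, in msl1 33 of 34 against 94.3%, and in snu66 33 of 36 against 92.6%. These counts lie close to the background.

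Which introns were highest differed in part. In brr1 the highest was RPS21A at 2.19 and 2.48 (2.33 ± 0.24), then RPS27B at 1.92 and 2.22 and RPS21B at 1.87 and 1.99. RPS21A also led in snu66, at 2.27 and 2.20 (2.24 ± 0.24), followed by both copies of RPS23, the gene of a protein at the decoding centre: RPS23B at 2.12 and 2.05 and RPS23A at 1.83 and 1.81. Each of these introns lay close to its own value on the other array. In snu17 the leaders were the RPS0 copies, with RPS0A at 2.43 and 1.81 (2.12 ± 0.17) and RPS0B at 1.87 and 1.88, and then RPS23A at 1.81 and 1.77. In msl1 they were RPS26B at 1.57 and 1.98 (1.78 ± 0.21), RPS4B at 1.33 and 2.01 and RPS18B at 1.37 and 1.97.

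RPS13 was lowest or next to lowest in all 4 mutants. Its intron index was 0.74 and 0.72 in brr1 (adjusted p = 0.0131), 0.45 and 0.62 in msl1 (adjusted p = 0.0634), 0.35 and 0.64 in snu17 (adjusted p = 0.0836), and 0.41 and 0.22 in snu66 (adjusted p = 0.26). It was above 0 on all 8 arrays. RPS8A shared the low end in brr1 (0.45 and 0.89) and in snu66 (0.37 and 0.11, adjusted p = 0.29), RPS25A in msl1 (0.39 and 1.08) and RPS6B in snu17 (1.28 and 0.52).

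In snu66 0 of 36 junctions fell by limma, where 6.19% of all junctions did, and 5 fell at an unadjusted p under 0.05 (35 of all 210). In brr1 7 fell against 10.7% of all junctions, with RPS4A lowest at −0.51 and −0.56 (−0.53 ± 0.14) and RPS27B next at −0.35 and −0.54. In msl1 4 fell against 8.92%, with RPS26B at −0.39 and −0.64 and RPS21A at −0.39 and −0.44. In snu17 2 fell against 5.74%, RPS24B at −0.35 and −0.47 and RPS21A at −0.30 and −0.34. These few calls rest on both arrays: with either array left out, 0 were called in brr1 and msl1, and in snu17 1 without array 1 and 0 without array 2.

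Without the debranching enzyme, in dbr1, 32 of 33 introns of the set rose where 81.6% of all introns did, and the rise ranged more widely among them than in other mutants. The intron probes themselves rose for 32 of 33 genes against 85.0% of all intron probes, with a median of 2.32, while exon probes had a median of 0.18. RPS30B, the gene of a small protein near the mRNA entry channel, led with indices of 4.85 and 6.27 (5.56 ± 0.17, a 47.1-fold rise). The intron of RPS25A was not called, at −0.24 and 0.31 (0.04 ± 0.20, adjusted p = 0.864), and RPS23B was next lowest at 0.46 and 1.29 (0.87 ± 0.23). No junction of the 36 genes was called in dbr1 by limma, against 0.455% of all junctions. At an unadjusted p under 0.05, 1 was lowered (14 of all 220).

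The nuclear cap-binding complex has a large subunit, missing in gcr3, and a small subunit, missing in mud13, and it helps the U1 snRNP to bind introns near the cap. In gcr3 26 of 36 introns rose against 66.4% of all introns, with a median of 1.05 against 0.75. In mud13 25 of 36 rose against 50.2%, with a median of 0.98 against 0.46. As deposited, exon probes fell for 26 of the 36 genes in gcr3 and for 25 in mud13, which lifts the index. In gcr3 the intron probes of RPS19A and RPS26B rose by 1.55 and 1.25. Those of RPS6A and RPS9B, whose indices rose, stood at −0.028 and −0.105. In mud13 the intron probes of RPS19A and RPS26B rose by 1.28 and 1.25, while that of RPS0A was not called by limma (0.27, adjusted p = 0.0992). RPS19A, the gene of a head protein needed to mature the ribosomal RNA, was highest in gcr3 at 1.92 and 2.49 (2.20 ± 0.23) and next to highest in mud13 at 2.12 and 1.35 (1.74 ± 0.23). RPS26B was highest in mud13, at 2.31 and 1.37 (1.84 ± 0.21), and the third in gcr3, at 1.76 and 2.04 (1.90 ± 0.21), behind RPS4B at 1.66 and 2.59 (2.13 ± 0.31). RPS27B was the third in mud13, at 2.27 and 1.12. In mud13 these 3 introns were all higher on array 1.

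At the low end of both strains stood RPS18A, the gene of a head protein that meets the large subunit. Its intron index was −0.82 and −0.14 in gcr3 (adjusted p = 0.0933) and −0.18 on each array in mud13 (adjusted p = 0.591). RPS25A was next in mud13, at 0.37 and −0.41 (adjusted p = 0.941), and did not differ from 0 beyond its error. The contrast of gcr3 with mud13 called 0 of 36 introns by limma. The count was 0 without adjustment too (p under 0.05), where it was 49 of all 212 introns, and the median difference of the set was 0.03. Over all introns 25 of 212 were called (11.8%), each higher in gcr3, with a median difference of 0.29. Among the 36 genes the extremes of this contrast were RPS4B (0.77 ± 0.44) and RPS30B (−0.43 ± 0.24), neither of them called (adjusted p = 0.288 for each). Both strains were set against the same wild type, but on separate arrays.

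At junctions 9 of the set fell in gcr3 against 12.8% of all junctions, and 1 in mud13 against 1.84%. RPS26B was lowest in gcr3 at −0.96 and −1.09 (−1.03 ± 0.15), and RPS21A next at −0.66 and −0.94 (−0.80 ± 0.09). RPS21A was also the 1 junction called in mud13, at −0.13 and −0.70. With either array of gcr3 left out 3 junctions were called. In mud13, 10 were called without array 1 and 0 without array 2.

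Of the mutants that lack a factor of the second step, prp18 raised 30 of 34 introns against 74.9% of all introns and prp17 raised 6 of 36 against 30.9%. RPS0A, the gene of a protein needed to build the subunit, was highest in prp18 at 2.39 and 1.60 (1.99 ± 0.17) and next to highest in prp17 at 1.37 and 0.73 (1.05 ± 0.17). In prp18 RPS24B followed at 1.68 and 1.86 (1.77 ± 0.23). In prp17 RPS8A led at 1.25 and 1.22 (1.24 ± 0.22), and RPS7A, the gene of a body protein, was the third at 0.92 and 1.09 (1.00 ± 0.20). RPS26A and RPS13 were the lowest in prp18, and in prp17 RPS26A, RPS30A and RPS13 were. RPS30A stood at −0.56 and −0.24 in prp17 (adjusted p = 0.175). RPS26A stood at −0.43 and −0.42 in prp17 (adjusted p = 0.15) and at −0.08 and 0.53 in prp18 (adjusted p = 0.371). RPS13 stood at −0.17 and −0.63 in prp17 (adjusted p = 0.258) and at 0.24 and 0.33 in prp18 (adjusted p = 0.34).

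Set directly against prp18, prp17 had a lower index at 17 of 34 introns and a higher one at 0, where 35.9% of all introns were lower. The median difference was −0.72. RPS24B was among those that differed most (0.23 in prp17 and 1.77 in prp18, difference −1.54 ± 0.32). RPS8A did not differ beyond its error (0.02 ± 0.31, adjusted p = 0.947). The number of calls fell to 10 and 5 without array 1 and array 2 of prp17, and to 11 and 9 without those of prp18. The count of 6 in prp17 itself was 3 without either array, and 19 under array weights. Without subtraction, intron probes rose for 5 and fell for 7 of the 36 genes in prp17, against 27.3% and 17.2% of all intron probes. In prp18 they rose for 25 and fell for 0 of 35, against 75.5% and 4.81%. Junctions of 4 genes fell in prp17 against 18.1% of all junctions, led by RPS26B (−0.34 and −0.69) and RPS25B (−0.42 and −0.50). In prp18 4 fell against 23.7%, led by RPS24B (−0.54 and −0.60) and RPS16B (−0.44 and −0.59). The 4 of prp17 came to 0 without either array, and those of prp18 to 3 without array 1 and 2 without array 2.

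In mud2, which lacks the yeast relative of the branch point binding partner U2AF65, 13 of 36 introns rose against 43.3% of all introns and 1 fell against 1.40%. Among the high ones were RPS30A at 0.84 and 1.53 (1.19 ± 0.23) and RPS21B at 0.89 and 0.97 (0.93 ± 0.25). RPS25A was the intron that fell, at −0.64 and −0.31 (−0.47 ± 0.20, adjusted p = 0.0496), and RPS8A was next lowest at −0.53 and −0.11 (adjusted p = 0.239). The RPS25A call was lost with either array left out, without the dye term, with the median of spots and with zeros kept. Without array 1 the raised introns were 6 and without array 2 they were 3. Under array weights they were 28.

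In mud1 and nam8, which lack U1 snRNP proteins, 0 of 36 introns rose by limma, against 25.0% and 4.52% of all introns. At an unadjusted p under 0.05, 1 rose and 2 fell in mud1, where 72 and 7 of all 212 introns did. In nam8 0 rose and 2 fell, where 24 and 7 of all 221 did. The median index of the set was 0.02 in mud1 and −0.12 in nam8, while other genes had medians of 0.47 and 0.14. RPL introns were low as well, with medians of −0.10 and −0.16. The contrast of mud1 with nam8 called 0 of 36 introns by limma, near the 2.37% of all introns. An unadjusted p below 0.05 was seen for 1 of the set and 33 of all 211 introns. Under array weights, 7 introns were called raised in mud1, 1 in nam8 and 10 in the contrast. With prp4-1a left out of the fit, 2 were raised in mud1.

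Introns of the set were likewise not called in ecm2 (0 of 36 against 3.98% of all introns), cus2 (0 of 34 against 0%), hsp104 (0 of 35 against 0%) and snu40 (0 of 35 against 0%). At an unadjusted p under 0.05 these 4 counts were also 0. Over all introns at that p, 18 of 201 rose and 3 fell in ecm2, and 4 of 196 rose and 1 fell in cus2. In snu40 7 of 186 rose and 0 fell, and in hsp104 0 of 204 did either. Without subtraction 6 of 36 intron probes rose in ecm2, against 13.4% of all intron probes. These strains lack a factor that acts beside the U2 and U6 RNAs, a factor that helps fold the U2 RNA, a chaperone of heat-stressed proteins and a protein associated with the U5 snRNP. The indices of the 36 genes ran from −0.35 to 0.35 in ecm2, from −0.36 to 0.14 in cus2, from −0.27 to 0.10 in hsp104 and from −0.14 to 0.22 in snu40. Effects of this size, and some larger ones, could not be told from 0 with 2 arrays. By limma, RPS0B in mud1 (0.47, adjusted p = 0.0765) and RPS19B in mud2 (0.67, adjusted p = 0.0529) were not called either. The U2 factors msl1 and cus2 differed at 32 of 33 introns, all higher in msl1, where 89.3% of all introns were, with RPS18B furthest apart (1.85 ± 0.31) and RPS13 not called (0.60 ± 0.38). The tri-snRNP mutants snu66 and prp4-1a differed at 36 of 36 introns, all lower in snu66, where 87.9% of all introns were. Strain background and temperature also differ between snu66 and prp4-1a and cannot be told apart from the mutation.

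In upf3, which lacks a factor of nonsense-mediated decay rather than of splicing, 21 of 35 introns rose against 36.7% of all introns. The median index was 0.59, against 0.49 for RPL introns and 0.16 for other genes. RPS13 was highest here, at 0.93 and 1.33 (1.13 ± 0.27), followed by RPS9B at 0.82 and 1.37 (1.09 ± 0.20) and RPS24A at 1.07 and 1.05 (1.06 ± 0.15). Among the lowest was RPS18B at −0.06 and 0.47 (adjusted p = 0.488). Without array 1 the count came to 10 and without array 2 to 2, and it was 32 under array weights. No junction of the set was called in upf3, mud1, mud2, nam8, ecm2, cus2, hsp104 or snu40 by limma. Of all junctions 2.76% were called in upf3, 2.29% in mud1, 1.36% in mud2, 2.76% in ecm2 and 0% in the other 4. At an unadjusted p under 0.05, junctions fell for 13 genes in mud1 (58 of all 218 junctions), 11 in ecm2 (51 of 217) and 10 in upf3 (39 of 217). They fell for 3 in mud2 (12 of 220), 1 in snu40 (1 of 212) and 0 in nam8 (0 of 221), cus2 (1 of 208) and hsp104 (0 of 214). They rose for 1 in ecm2 (1 of 217) and 1 in upf3 (5 of 217).

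By place in the subunit the groups did not stand in 1 order. In gcr3 the head genes had a median intron index of 1.36, those between head and body 0.94 and those of body and platform 0.92. In brr1 the medians were 1.36, 1.67 and 1.30, and in snu66 1.13, 1.37 and 1.42. No test was run between these groups, whose genes include both copies of a pair.

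Copies of a gene often behaved differently. For each pair the intron index of the B copy was subtracted from that of the A copy on every array, and the difference was tested among the 44 pairs of ribosomal protein genes on the array. Over all mutants, 86 of 276 tested combinations of a small subunit pair and a mutant were called, with the A copy higher in 39 and the B copy in 47. For RPL pairs this was 134 of 405. Each of the 16 pairs was called in at least 1 mutant, and 14 of them were called in both directions, depending on the mutant. The same counts are not given for RPL pairs, so they mark no trait particular to the small subunit pairs. Calls fell in 13 mutants, and in cus2, ecm2, hsp104, nam8 and snu40 0 pairs were called by limma, against 4.65% of all pairs in ecm2 and 0% in the other 4, with 0, 1, 0, 2 and 0 at an unadjusted p under 0.05. The unadjusted counts stand without a share of all pairs and cannot be set against it.

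**Figure D3:**
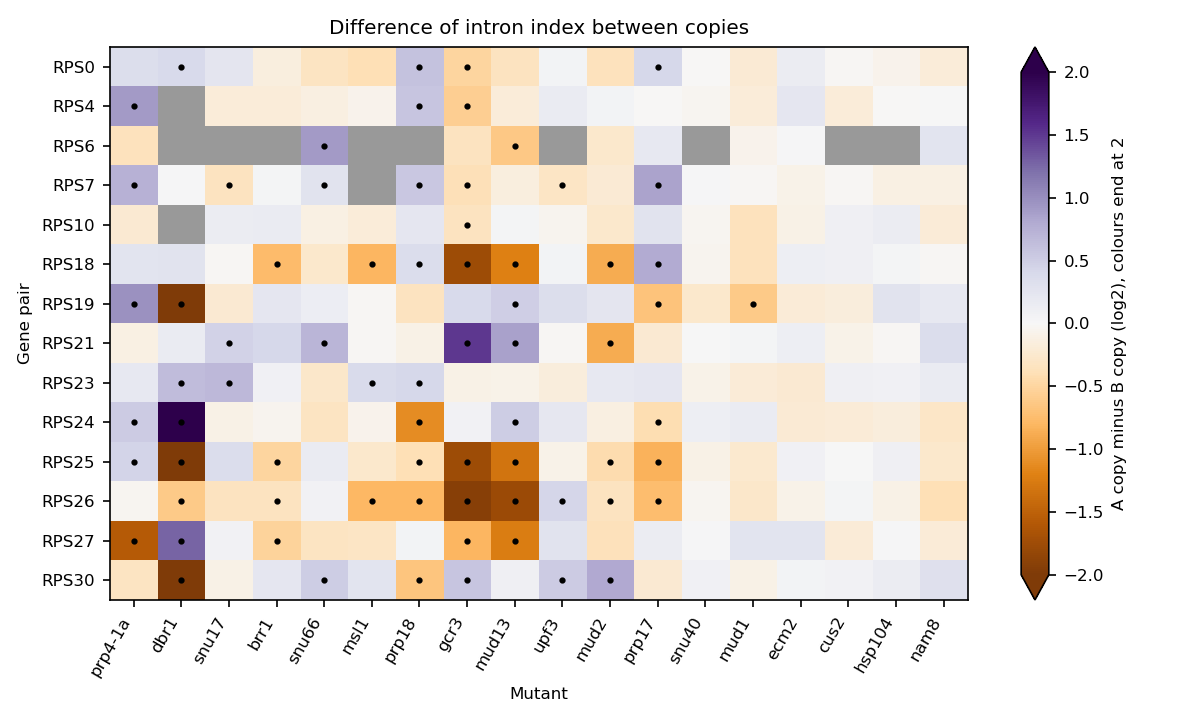
Difference of the intron index between copies (A minus B, log2, mean of 2 arrays) for 14 of the 16 pairs in rows and 18 mutants in columns. Dots mark an adjusted p under 0.05, grey cells lack values, and colours end at 2. In gcr3 and mud13, the RPS18, RPS25, RPS26 and RPS27 rows are orange (B copy higher) and RPS21 is purple, while the strongest cells of dbr1 lie in RPS19, RPS24, RPS25 and RPS30.

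In the cap-binding mutants more than 1 pair in 2 differed. In gcr3 12 of 16 pairs differed where 67.4% of all pairs did, and in mud13 10 of 16 where 51.2% did. The 7 pairs called in both strains (among them RPS18, RPS21, RPS25, RPS26 and RPS27) had the same direction in both, and both strains were compared with BY4741. RPS26 differed most. The intron index of RPS26A was −0.22 and 0.18 in gcr3 and 0.35 and −0.23 in mud13, while that of RPS26B was 1.76 and 2.04 in gcr3 and 2.31 and 1.37 in mud13. The A copy thus lay around 0 and the B copy well above it on all 4 arrays. The difference was −1.92 ± 0.13 in gcr3 (adjusted p = 6.83e-12) and −1.78 ± 0.13 in mud13 (adjusted p = 3.66e-11). Intron probes alone showed it too: that of RPS26B rose by 1.25 in each strain and that of RPS26A stood at −0.13 and −0.14.

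RPS25 and RPS18, both pairs of head proteins, were split the same way. In gcr3 the index of RPS25A was −0.24 and 0.10 and that of RPS25B was 1.33 and 2.05, a difference of −1.75 ± 0.15. In mud13 the RPS25 difference was −1.33 ± 0.15. Part of it came from the exon probes, which in gcr3 stood 0.81 ± 0.06 higher for RPS25A than for RPS25B. RPS18A was at −0.82 and −0.14 in gcr3 and RPS18B at 0.87 and 1.70, a difference of −1.76 ± 0.14, with −1.21 ± 0.14 in mud13. For these pairs the copies did not overlap on the arrays of either strain. The RPS18A intron probe itself fell in gcr3 (−0.66, adjusted p = 0.00416).

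RPS27 differed by −0.81 ± 0.16 in gcr3 and −1.24 ± 0.16 in mud13. RPS21 went the other way. RPS21A was at 1.61 and 2.03 in gcr3 and RPS21B at 0.24 and 0.40, a difference of 1.50 ± 0.17, with 0.86 ± 0.17 in mud13.

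**Figure D4:**
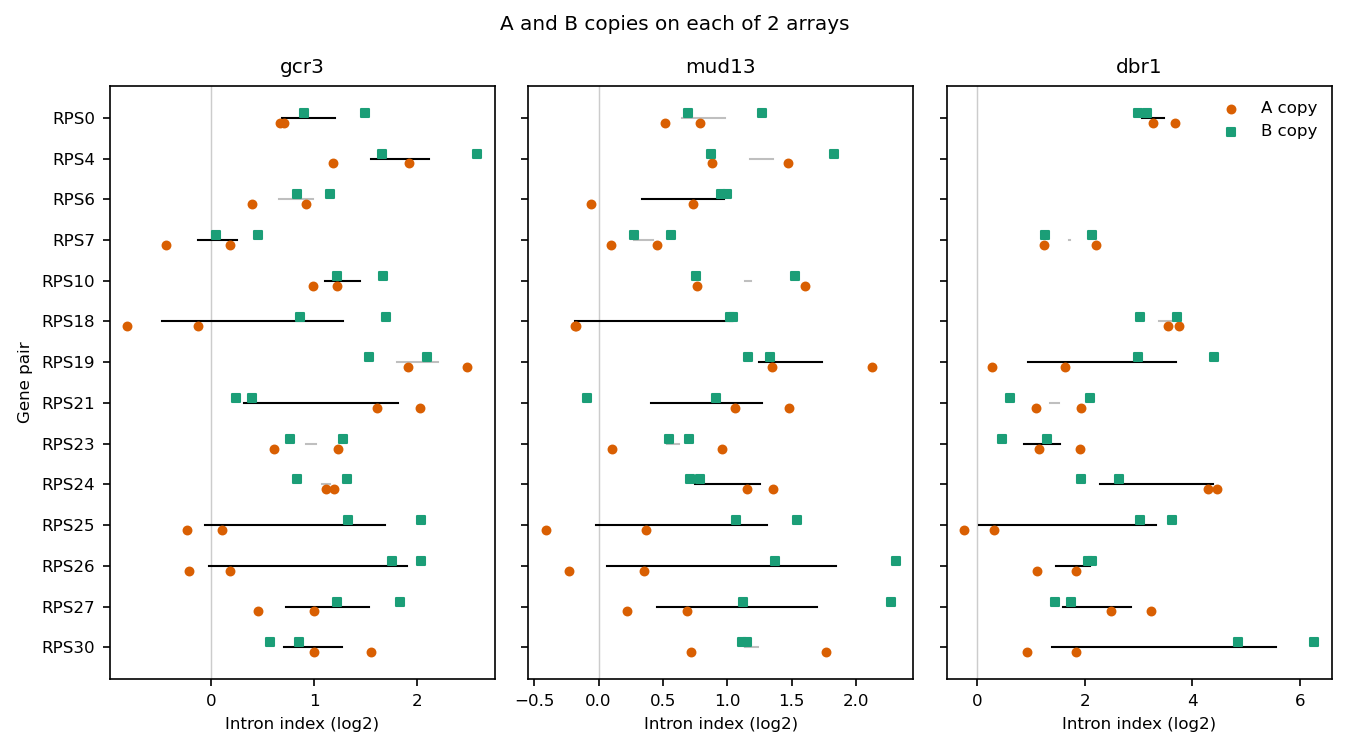
Intron index (log2) of the A copy (circles) and the B copy (squares) of 14 pairs on each of 2 arrays in gcr3, mud13 and dbr1, with lines between the means of the copies, black where the adjusted p was under 0.05. RPS26A lies between −0.23 and 0.35 in gcr3 and mud13 and RPS26B between 1.37 and 2.31, and in dbr1 RPS30B lies at 4.85 and 6.27 and RPS30A at 0.92 and 1.84. RPS4, RPS6 and RPS10 have no line in dbr1.

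In dbr1 10 of 13 tested pairs differed against 79.4% of all pairs, with the A copy higher in 5 and the B copy in 5. The pair of RPS30 stood furthest apart in any mutant: RPS30A was at 0.92 and 1.84 and RPS30B at 4.85 and 6.27, a difference of −4.18 ± 0.19 (18.1-fold). RPS25A at −0.24 and 0.31 and RPS25B at 3.03 and 3.63 differed by −3.29 ± 0.15, and RPS19A at 0.26 and 1.62 and RPS19B at 2.99 and 4.41 by −2.76 ± 0.19. RPS24 had the reverse order, with RPS24A, the gene of a body protein, at 4.46 and 4.29 and RPS24B at 1.93 and 2.63 (difference 2.09 ± 0.17). RPS27 differed by 1.27 ± 0.16, opposite to its direction in gcr3. Of the 7 pairs called in both gcr3 and dbr1, 3 had the same direction. The difference between copies spread 2.79 times as far between the dbr1 arrays as in the median mutant, so these errors are too small.

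Among the other mutants prp18 had the most pairs called, 11 of 15 against 71.4% of all pairs, and prp17 had 8 of 16 against 48.8%. The 7 pairs called in both (among them RPS0, RPS7, RPS18, RPS24, RPS25 and RPS26) had the same direction. RPS18 was reversed from the cap-binding strains, with the A copy higher by 0.79 ± 0.14 in prp17 and 0.36 ± 0.14 in prp18. RPS7, the pair with the smallest error, differed by 0.86 ± 0.10 in prp17 and 0.55 ± 0.10 in prp18. With single arrays left out, the calls came to 4 or 5 in prp17 and 6 or 7 in prp18. In prp4-1a 7 of 16 pairs differed against 45.5%, led by RPS27, with RPS27A lower (−1.57 ± 0.16), and RPS19, with RPS19A higher (0.97 ± 0.19). Intron probes alone stood at 2.23 for RPS27A and 2.775 for RPS27B, and at 1.85 for RPS19A and 1.81 for RPS19B. Exon probes stood at −0.75 and −0.87 for RPS27A and −1.95 and −1.71 for RPS27B. They stood at −2.89 and −2.32 for RPS19A and −2.29 and −1.06 for RPS19B, so much of both differences came from exon probes. Under array weights, 4 pairs were called in prp4-1a.

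In mud2 6 of 16 pairs differed against 41.9%. RPS21 differed by −0.88 ± 0.17, opposite to its direction in the cap-binding strains. The remaining counts were 5 of 16 in snu66 against 48.8%, 4 of 15 in brr1 against 40.5%, 4 of 15 in snu17 against 26.2%, 3 of 14 in msl1 against 28.9%, 5 of 15 in upf3 against 33.3% and 1 of 16 in mud1 against 9.30%. In snu66 the A copy was higher in all 5 (among them RPS6, RPS7, RPS21 and RPS30), and in brr1 the B copy was higher in all 4 (RPS18, RPS25, RPS26 and RPS27). Intron probes alone in brr1 stood at 1.00 for RPS18A and 1.77 for RPS18B, and at 1.70 for RPS27A and 2.28 for RPS27B. They were closer for RPS25A and RPS25B (0.916 and 0.855) and for RPS26A and RPS26B (1.47 and 1.55). The mud1 pair was RPS19 (−0.62 ± 0.19), which was not called with either array left out. Without array 1, 0 pairs were called in snu66 and in upf3, 1 in snu17 and 2 in brr1. Without array 2 the counts were 3, 2, 2 and 1 in the same order, and 3 in mud2.

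By number of mutants, RPS26 was called in 9 (the B copy higher in 8), RPS25 in 8, and RPS18 and RPS7 in 7 each. RPS25B was the higher copy in 7 of its 8. In dbr1, gcr3, mud13, mud2 and prp17 its intron probe alone was the higher one as well. In brr1 the intron probes alone stood at 0.916 for RPS25A and 0.855 for RPS25B, and in prp18 at 0.127 and 0.027. The RPS25 index differences in brr1 and prp18 thus came from the exon probes. RPS10, whose protein lies in the head near the mRNA entry, was called in 1 mutant, with its differences between −0.34 and 0.27, and RPS6 in 2 of the 9 mutants where it could be tested.

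At junctions, over all mutants, 27 of 286 combinations of these pairs were called against 10.6% for all pairs, and the median size of the difference was 0.09 against 0.23 for introns. RPS30 was called in 5 mutants with the B copy higher each time (by 0.19 to 0.27), RPS26 and RPS21 in 4 and RPS24 in 3. The RPS26 junction difference reached 4.64 ± 0.30 in prp4-1a, through the doubtful RPS26A probe named above. RPS21A was lower than RPS21B in gcr3 (−0.51 ± 0.09) and mud13 (−0.27 ± 0.09), where its intron was the higher one. RPS24B was lower than RPS24A in prp18 (0.48 ± 0.12), where the RPS24B intron was the higher one. Under array weights, 46 combinations were called.

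Exon probes differed between copies in 60 of 286 combinations against 19.2% for all pairs. These differences need no centring, since both copies sit on 1 array. RPS25, RPS7 and RPS30 were called in 8 mutants each. RPS25A stood higher than RPS25B in all 8, most in gcr3 (0.81 ± 0.06), mud13 (0.61 ± 0.06) and brr1 (0.57 ± 0.06). RPS7A was higher in 7 of 8 (0.48 ± 0.06 in gcr3) and lower in prp4-1a (−0.49 ± 0.06). RPS30B was higher in 6 of 8, with −0.35 ± 0.04 in gcr3 and −0.32 ± 0.04 in mud2, and RPS30A in prp4-1a and prp18 (0.29 ± 0.04 in each). Where exon probes read both copies, a difference between the transcripts would be understated, which was not tested.

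Exon probes follow the level of the whole transcript. As deposited, they fell for all 36 genes in prp4-1a, against 76.2% of all exon probes and intronless genes, by a median of 2.29 on the log2 scale. RPS25B was lowest at −3.43 and −2.89 (−3.16 ± 0.13), and RPS27A least changed at −0.75 and −0.87 (−0.81 ± 0.12). Centred on exon and intronless probes, where the median of all features moves by 1.20, 34 of 36 fell, 1 rose and the median was −1.10, and RPS27A stood at 0.39. Centred on all probes, 36 fell.

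In the deletion strains the exon changes were smaller, and the counts depended on centring. Counts after either centring stand without a share of all exon probes and cannot be read as results about the set. In prp18 28 of 34 fell against 44.8%, also 28 with arrays centred on all probes and 23 with exon centring. RPS0B was lowest at −1.07 and −0.81 (−0.94 ± 0.11) and RPS8A highest of those called at −0.16 and −0.47. Without array 2, 14 fell. In gcr3 26 fell against 50.0%, with 19 lowered and 0 raised when centred on all probes and 17 and 3 with exon centring. RPS16B, a head protein gene, was lowest there at −0.81 and −1.23 (−1.02 ± 0.12). Without array 2 the gcr3 count was 11. In mud13 25 fell against 44.4%, and the least lowered of these was RPS18B at −0.34 and −0.25. That count was 13 centred on all probes, 8 with exon centring, 10 without array 1 and 0 under array weights.

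In prp17 19 fell against 41.3%, with RPS0B lowest at −0.86 and −0.43 (−0.65 ± 0.11). RPS0B was thus the lowest exon probe in both second-step mutants. The prp17 count was 4 centred on all probes, 9 with exon centring, 3 without array 1 and 12 without array 2. In msl1 15 fell against 41.0%, with RPS7B among the lowest at −0.53 and −0.52, and the count was 2 under either centring and 1 with either array left out. In snu17 12 fell against 34.7%, from RPS7B at −0.43 and −0.83 (−0.63 ± 0.11) to RPS9B at −0.50 and −0.09, with 8 centred on all probes, 3 (and 1 raised) with exon centring, and 6 and 5 without array 1 and array 2.

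In upf3 10 fell against 21.2%, from RPS6A, the gene of a protein phosphorylated in response to nutrients, at −0.62 and −0.47 to RPS24A at −0.34 and −0.31. The count was 3 centred on all probes, 1 with exon centring, 2 without array 1 and 0 without array 2. In brr1 8 fell against 40.7%, from RPS9B at −0.52 and −0.63 (−0.57 ± 0.11) to RPS0B at −0.42 and −0.13. The count was 5 centred on all probes and 1 without array 2, and with exon centring 4 fell and 10 rose. In ecm2 15 rose against 24.2%, from RPS7B at 0.46 and 0.17 to RPS19A at 0.66 and 0.48 (0.57 ± 0.15). The count was 0 centred on all probes, 5 with exon centring and 0 with either array left out. In dbr1 RPS27A was the 1 exon probe that rose, at 0.83 and 0.24 (0.53 ± 0.12), against 2.65%, and it was not called without array 1. In the other 7 mutants 0 exon probes of the set were called by limma as deposited, where 8.00% of all exon probes and intronless genes were called in mud1, 14.2% in mud2, 0.441% in nam8, 0.448% in snu40, 15.2% in snu66 and 0% in cus2 and hsp104. At an unadjusted p under 0.05, 13 of the set rose in mud1 (40 of all 225), 11 in nam8 (45 of 227) and 6 in snu66 (23 of 223), 2 fell in mud2 (50 of 226), and 0 did either in cus2, hsp104 and snu40. With exon centring 15 rose in mud1 and 4 in snu66.

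**Figure D5:**
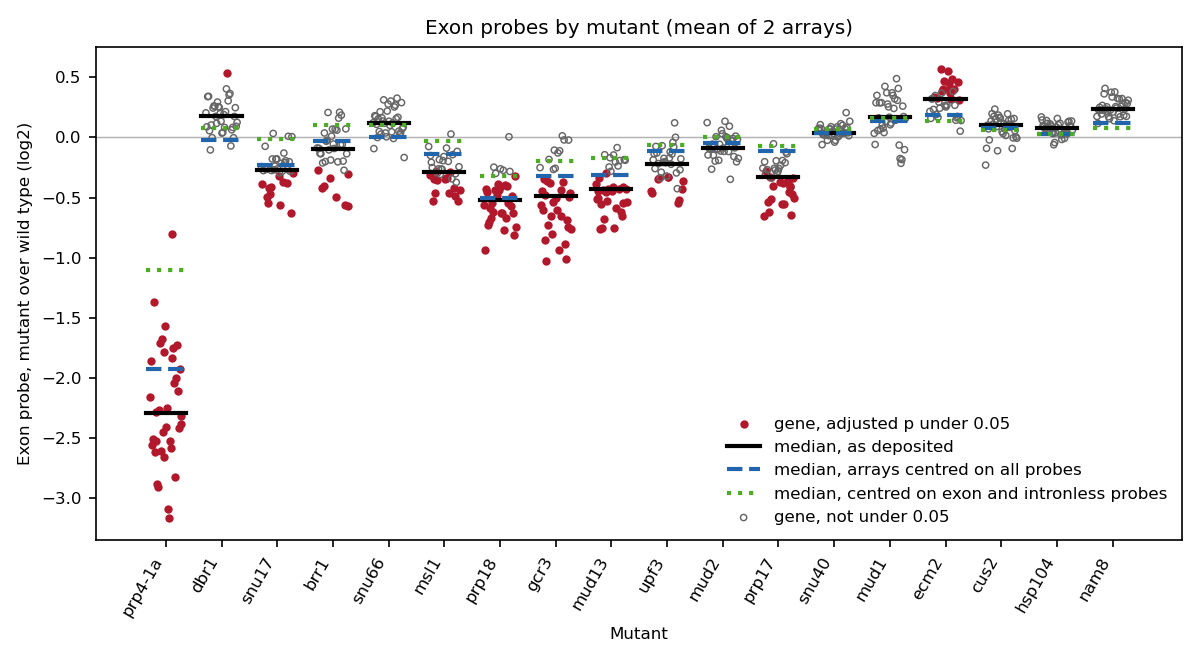
Exon probe (log2, mutant over wild type, mean of 2 arrays) of each of the 36 genes by mutant as deposited, with called genes filled and lines for the median of the 36 genes as deposited and after each centring. In prp4-1a the 3 medians are −2.29, −1.92 and −1.10, and in msl1 −0.29, −0.14 and −0.03.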

How the data were processed

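The values are log2 ratios of the 2 channels of each spot as deposited by the authors, with no record in the labels of background treatment or scaling. That the base is 2 was tested on 1562 differences between recurring values of an array: 247 fitted logarithms of ratios of whole numbers up to 400 (tolerance 3e-08) at base 2. Each probe had 4 spots. Exact zeros (8 to 985 per array) and blanks (0 to 1110) were treated as missing, and the usable spots were averaged. Usable spots with a symbol numbered 2127 to 2792 per array. Probe roles were inferred from order and ratios turned to mutant over wild type, taking channel 2 over channel 1, the likely direction.

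For each measure, limma 3.58.1 (R 4.3.3) fitted all 36 arrays jointly, with 1 coefficient for every mutant plus a dye term. A feature was tested where both arrays gave a value. Benjamini-Hochberg adjustment ran within each mutant or contrast over all introns, junctions, exon probes or pairs. Probes without subtraction were fitted and adjusted in 1 table of all probes. The fits were tested on simulated data for the mud1 comparison. For introns, 23 of 44 log2 changes of 0.5 and 44 of 45 changes of 1 were recovered, and 1 of 123 unchanged introns was called. At junctions 42 of 49 changes of 0.5 were recovered and 5 of 121 unchanged ones called. For exon probes these counts were 48 of 50 and 0 of 126, and for pairs at introns 9 of 11 and 1 of 22.

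The 36 genes, the lists, the contrasts and the rule for named genes were chosen with earlier results of these data known. The rule names, for mutants with at least 5 introns called, the 3 highest and 2 lowest introns, the 2 lowest called junctions and the extreme called exon probes, and the pairs with most calls (6 at introns, 4 each at junctions and exons). Members of 2 families that the rule also names are not reported here. Further pairs, RPS30A in prp17 and the junction of RPS26A were named after their values were seen. Alternatives were no dye term, the median of spots, zeros kept, at least 3 spots per probe, arrays weighted by mutant spread, each array left out, and 2 centrings for exon probes. Leaving prp4-1a out was added after seeing the data. No genome or sequence was used here.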

Additional observations from a re-analysis of the deposited data

How the results depend on the processing

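Of 504 recomputed counts of calls, 360 stayed within 1.5 times. Of 1148 recomputed single values, 975 kept direction and side of the threshold, 159 lost their call, 13 gained one and 1 reversed, the exon probe of RPS27A in prp4-1a at 0.39 when centred on exon and intronless probes. The cause of these shifts was not tested. With arrays weighted by mutant spread, introns raised numbered 1 in ecm2, 7 in mud1, 28 in mud2 (2 lowered), 1 in nam8, 19 in prp17 and 32 in upf3. Junctions lowered were then 9 in prp4-1a (1 raised), 16 in brr1, 20 in gcr3, 10 in msl1, 0 in mud13, 13 in prp17 and 11 in prp18. Exon probes lowered were 32 in msl1, 0 in mud13, 29 in prp17 and 26 in upf3, and 12 rose in dbr1 and 25 in ecm2. Pairs differing were 4 in prp4-1a, 7 in mud1 and 14 in mud2 at introns and 46 at junctions over all mutants, and the contrasts of prp17 with prp18 and mud1 with nam8 called 29 and 10. With at least 3 spots per probe, where fewer features could be tested, introns raised were 18 in msl1, 0 fell in mud2, 0 junctions rose in snu17, 2 exon probes rose in dbr1, pairs numbered 0 in msl1 and 2 in snu17, and msl1 against cus2 called 13. Without prp4-1a in the fit (chosen after seeing the data), introns raised were 2 in mud1 and 11 in prp17, junctions lowered 11 in brr1, 15 in gcr3, 7 in msl1, 2 in mud13, 7 in prp18 and 5 in snu17, exon probes raised 2 in dbr1 and pairs 4 in mud1. Without the dye term, introns lowered were 0 in mud2, junctions lowered 3 in brr1, 0 in msl1, 0 in mud13, 2 in prp18 and 1 in snu17, exon probes lowered 6 in snu17 and 3 in upf3 and raised 0 in dbr1 and 6 in ecm2, and prp17 against prp18 called 10. With the median of spots, introns lowered were 0 in mud2, junctions lowered 1 in msl1 and 1 in snu17, and pairs 0 in mud1. With zeros kept, introns lowered were 0 in mud2, junctions lowered 1 in brr1, 2 in msl1 and 0 in snu17, and pairs 1 in msl1, 0 in mud1, 5 in prp17, 2 in snu17, 3 in snu66 and 3 in upf3. Centred on all probes, exon probes lowered were 5 in brr1, 2 in msl1, 13 in mud13, 4 in prp17 and 3 in upf3, and raised 0 in dbr1 and ecm2. Centred on exon and intronless probes, they were 4 in brr1, 17 in gcr3, 2 in msl1, 8 in mud13, 9 in prp17, 3 in snu17 and 1 in upf3 lowered, and 2 in dbr1 and 5 in ecm2 raised. With 1 array left out, introns raised were 3 to 6 in mud2 (0 lowered), 3 in prp17 and 2 to 10 in upf3. Junctions lowered were then 0 in brr1, 3 in gcr3, 0 in msl1, 0 to 10 in mud13, 0 in prp17, 2 to 3 in prp18 and 0 to 1 in snu17, and raised 0 to 3 in snu17 and 0 in snu66. Exon probes lowered were 1 to 6 in brr1, 11 to 28 in gcr3, 1 in msl1, 10 to 27 in mud13, 3 to 12 in prp17, 14 to 28 in prp18, 5 to 6 in snu17 and 0 to 2 in upf3, and raised 0 to 1 in dbr1 and 0 in ecm2. Pairs were 1 to 2 in brr1, 0 in mud1, 3 to 4 in mud2, 4 to 5 in prp17, 6 to 7 in prp18, 1 to 2 in snu17, 0 to 3 in snu66 and 0 to 2 in upf3, and prp17 against prp18 called 5 to 11. An array left out leaves 1 array of that mutant, assumed to vary like the others. No paired analysis was possible because replicate numbers name only the channel order, and mutant and wild type already share each array.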
